A study of Mus musculus with 8 samples.

Results

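Erythroid barcodes were taken from 8 droplet libraries of the mouse organ of Corti, the sensory epithelium of the cochlea. A barcode was counted as erythroid when the adult globin genes Hba-a1, Hba-a2, Hbb-bs and Hbb-bt together held at least 50% of its unique molecular identifiers (UMIs, 1 per captured transcript end) and when it held at least 1 UMI of Alas2. Every deposited barcode entered the rule, with no minimum on detected genes. Members were thus selected on the sum of their globin UMIs and on Alas2, and these values are given as a description only; the rule did not use how the globin UMIs divide among the 4 genes. The rule found 2039 erythroid barcodes among 8061, which is 25.3%, and they carried 21.9% of all UMIs. Of these, 1828 barcodes had fewer than 500 detected genes and 211 had 500 or more. Erythroid barcodes made up 93.6% of the 1954 barcodes with fewer than 500 genes in the whole series.

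All mice carried a tamoxifen-inducible Cre driven by Fgfr3 (Fgfr3iCre+), which acts in cochlear supporting cells, together with the Atoh1-HA+ transgene. They also carried the hair cell reporter Chrna9-GFP+ and the Cre reporter Rosa26-CAG-loxP-stop-loxP-tdTomato+. Uninduced mice gave Coch P12 (2 libraries, postnatal day 12) and Coch P33 (1 library, day 33). Mice given tamoxifen on days 12 to 13 gave Coch + Tmx P26 (3 libraries, day 26) and Coch + Tmx P33 (2 libraries, day 33). Age and induction overlap, since both Coch P12 libraries were uninduced and 5 of the 6 later libraries were induced. Libraries of a group are described by the study as biological replicates, in equal number per group, whereas the labels give 3 libraries to Coch + Tmx P26 and 1 to Coch P33. The labels tie no library to an animal, so p-values measure the spread between these libraries, which may be partly technical.

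Red blood cells form in the bone marrow from erythroblasts, which divide a few times, fill with hemoglobin, condense their chromatin and expel the nucleus. The resulting reticulocyte cannot transcribe, and it degrades its mitochondria, ribosomes and most proteins while the remaining mRNA decays. Hemoglobin pairs alpha globin (Hba-a1, Hba-a2) with beta globin (Hbb-bs, Hbb-bt), and each chain holds a heme group made from glycine by a chain of enzymes that starts with Alas2 and ends with Fech. Bpgm makes 2,3-bisphosphoglycerate, which lowers the oxygen affinity of hemoglobin.

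The 5 genes that define the barcodes lie on chromosomes 7, 11 and X of GRCm38 (RefSeq positions, build GRCm38.p6). Windows of 30 bases from the 250 bases before their annotated starts are shown as a description, and no result rests on them. Hbb-bs lies at chr7:103826523-103827928 and Hbb-bt at chr7:103812524-103813923, both on the minus strand. Hba-a1 lies at chr11:32283672-32284486 and Hba-a2 at chr11:32296492-32297310, both on the plus strand, and Alas2 lies at chrX:150547417-150570622. Bpgm, the sixth marker, lies at chr6:34476356-34505136. Capitals mark CACCC and CCAAT on the gene's strand in the beta globin windows, CCAAT in the alpha globin windows, and TTATCT, which is AGATAA on the other strand, in Alas2. The Hbb-bt window also holds attgg, which is CCAAT on the other strand, from 80 bases before the start, left in lower case.
Hbb-bs, chr7:103827990-103828019, minus strand: aCACCCtggtaagggCCAATctgctcacac
Hbb-bt, chr7:103813984-103814013, minus strand: aCACCCtggcattggCCAATctgctcagag
Hba-a1, chr11:32283572-32283601, plus strand: agcacaaaccagCCAATgagaactgctcca
Hba-a2, chr11:32296389-32296418, plus strand: agcacaaaccagCCAATgagaactgctcca
Alas2, chrX:150547319-150547348, plus strand: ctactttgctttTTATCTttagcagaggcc
The beta globin windows were identical at 25 of 30 bases and placed CACCC 14 bases before CCAAT in both genes. The alpha globin windows were identical at all 30 bases. Searched on both strands of the 250 bases before the start, CCAAT was present in 33.9% of 32851 RefSeq promoters, CACCC in 52.0%, both together in 16.9% and AGATAA in 9.99%. A match is a description of letters only.

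Libraries held 634 to 1551 barcodes and 3972800 to 13423524 UMIs. The smallest barcode kept in a library held 1606 to 4443 UMIs, so the depth at which a small barcode entered differed between libraries. No pair of libraries shared more than 3 barcode sequences. Outside the erythroid barcodes, Atoh1, the transgene's gene, reached 92.1 to 524 counts per 1000000 non-globin UMIs (CPM) in 4 of the 5 libraries labelled induced and 18.6 to 25.5 in the 3 uninduced libraries. The library labelled rep 3 of Coch + Tmx P26 had 14.1, which goes against its label, and results on induction are given with and without it. Hair cell markers made up 0.0140 to 0.146% and supporting cell markers 0.0723 to 0.240% of the non-globin UMIs of the other barcodes.

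RNA from other cells was present in the erythroid barcodes and differed between libraries. Erythroid barcodes with 3 or more UMIs of 65 marker genes of 11 other cell types made up 5.42% in Coch P12 rep 1 and 98.4% in Coch P12 rep 2. The shares were 25.4%, 48.0% and 82.9% in the 3 libraries of Coch + Tmx P26, 36.0% and 24.3% in the 2 of Coch + Tmx P33, and 66.8% in Coch P33. Together these markers were at 1855 to 20620 CPM in erythroid barcodes and 7079 to 22970 CPM in the other barcodes. The myelin gene Mbp ranged from 14.3 CPM in Coch P12 rep 1 to 14140 in Coch P12 rep 2. Globin UMIs were few outside the erythroid set: the median barcode outside the erythroid set held 0.0499 to 0.894% globin UMIs, and 720 macrophage barcodes (at least 3 detected of 5 macrophage genes) held 0.0664 to 1.03% at the median. No doublet caller was run, and the erythroid set was instead recomputed without the barcodes holding 3 or more marker UMIs.

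The share of barcodes that were erythroid was 10.7% in Coch P12 rep 1 (exact 95% binomial interval 9.21 to 12.3%) and 17.9% in Coch P12 rep 2 (15.6 to 20.4%). It was 34.0%, 20.9% and 48.1% in the libraries of Coch + Tmx P26, 19.7% and 19.7% in those of Coch + Tmx P33, and 30.7% in Coch P33. Both Coch P12 libraries lay below all 6 later libraries. The interval of Coch P12 rep 2 overlapped those of Coch + Tmx P33 (16.69 to 23.03% and 17.19 to 22.44%) and Coch + Tmx P26 rep 2 (18.01 to 24.05%). That of Coch P12 rep 1 overlapped none of the later ones. The mean was 14.3% ± 5.07 (SD, n = 2) at P12 and 28.9% ± 11.2 (SD, n = 6) later, a difference of -14.6 percentage points with p = 0.0714 in a two-sided exact permutation test, the smallest p that 2 against 6 libraries can give, and an adjusted p = 0.286 over 8 comparisons. Induced libraries had 28.5% ± 12.5 (SD, n = 5) and uninduced libraries 19.8% ± 10.1 (SD, n = 3), with overlapping values and p = 0.357 (adjusted p = 0.571, exact permutation test). Without the library labelled rep 3 of Coch + Tmx P26, that difference went from 8.75 to 3.85 points (p = 0.571, exact permutation test). It was 4.22 points without Coch P12 rep 1 (p = 0.667) and 14.2 without Coch P33 (p = 0.0952, exact permutation tests). Among barcodes with at least 5000 UMIs, which removes the difference in the smallest barcode kept, the share at P12 was 6.74% and 17.8% and the later libraries held 21.6 to 57.6%.

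**Figure D1:**
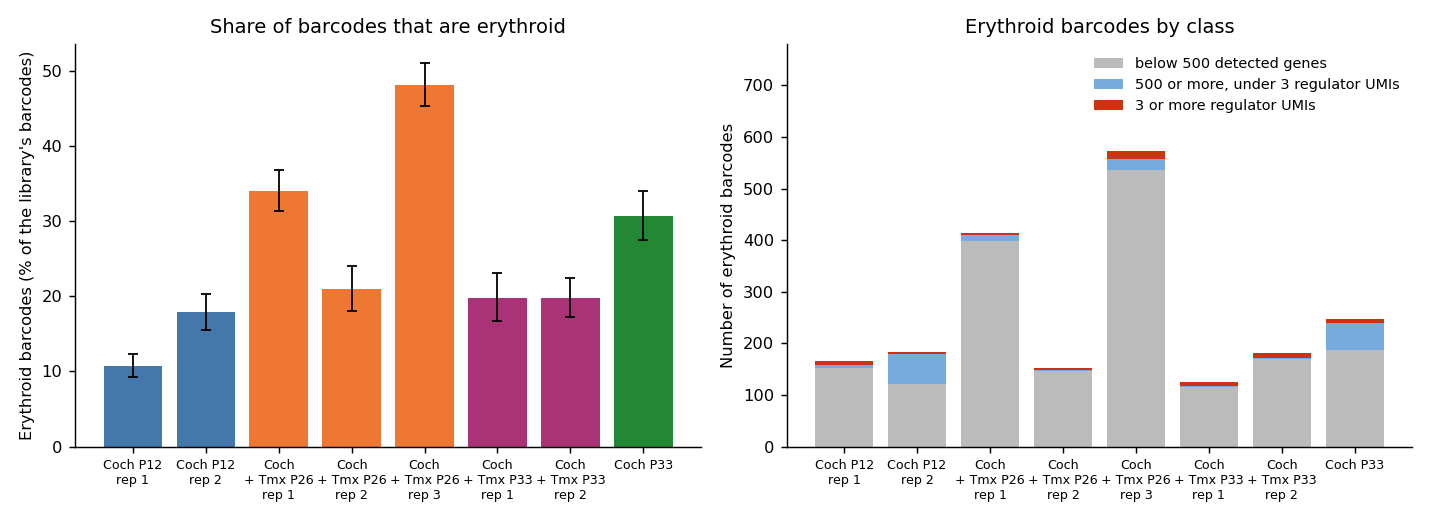
Left, the percentage of each library's barcodes that were erythroid, with exact 95% binomial intervals that cover counting error only. Right, the number of erythroid barcodes split into those below 500 detected genes, those at or above 500 with fewer than 3 UMIs of the regulators Gata1, Klf1, Hemgn and Tal1, and those with 3 or more regulator UMIs. The 2 Coch P12 libraries are the lowest at left, and the middle class is largest in Coch P12 rep 2 and Coch P33.

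The rule cut through few barcodes at its globin threshold and more at its Alas2 threshold. At the first, 15 erythroid barcodes held 50 to 60% globin UMIs (median 11685 UMIs and 1736 genes), and 13 barcodes just outside held 40 to 50% (median 7181 UMIs and 1415 genes). Of the erythroid barcodes, 1868 (91.6%) held at least 90% globin. Another 82 barcodes had at least 50% globin but no Alas2 UMI, 44 of them in the library labelled rep 3 of Coch + Tmx P26. They had a median of 3187 UMIs and 76 genes, against 3419 UMIs and 84 genes in the 77 erythroid barcodes with a single Alas2 UMI. Near the gene threshold, 42 erythroid barcodes lay within 50 genes below it and 37 within 50 genes above.

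Within the erythroid barcodes, the 4 adult globin genes did not hold fixed proportions across libraries. Hba-a1 took 33.1 to 46.7% of adult globin UMIs, Hbb-bs 36.0 to 53.7%, Hbb-bt 7.01 to 11.4% and Hba-a2 1.84 to 17.0%. Hba-a1 and Hba-a2 are near-identical copies, and Hbb-bs and Hbb-bt are close copies, so the split of reads within each pair is uncertain and depends on the authors' alignment. The Hba-a2 share stood apart in Coch + Tmx P33 rep 1, where it was 31.9% of alpha globin UMIs against 4.50 to 15.9% in the other 7 libraries.

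The alpha globin share, which does not depend on the split between copies, was 41.0% and 50.7% at P12, 41.4%, 35.8% and 49.9% in Coch + Tmx P26, 53.2% and 52.8% in Coch + Tmx P33, with 55.6% for Coch P33. Its mean was 45.8% ± 6.85 (SD, n = 2) at P12 and 48.1% ± 7.80 (SD, n = 6) later, a difference of -2.26 points that was smaller than the spread (p = 0.786, adjusted p = 0.786, exact permutation test). Induced libraries had 46.6% ± 7.70 (SD, n = 5) and uninduced libraries 49.1% ± 7.41 (SD, n = 3) (p = 0.607, adjusted p = 0.735, exact permutation test). Without the library labelled rep 3 of Coch + Tmx P26, that difference went from -2.47 to -3.29 points (p = 0.629, exact permutation test). Hbb-bt, the minor adult beta globin, took 17.4% and 18.6% of beta globin UMIs at P12, 19.5%, 16.4% and 17.3% in Coch + Tmx P26, 17.0% and 14.8% in Coch + Tmx P33, with 18.9% for Coch P33. It differed by 0.67 points between P12 and later libraries (p = 0.643, adjusted p = 0.735) and by -1.31 points between induced and uninduced libraries (p = 0.286, adjusted p = 0.571, exact permutation tests), both within the spread. The latter was -1.37 points without the library labelled rep 3 of Coch + Tmx P26 (p = 0.343, exact permutation test).

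The Hbb-bt share varied with the number of detected genes. Barcodes at or above 500 genes had the higher Hbb-bt share in 8 of 8 libraries, from 18.2 to 23.4%, against 14.6 to 19.4% below 500 genes. Pooled over libraries, Hbb-bt was 11.6% of beta globin UMIs in the 423 erythroid barcodes with fewer than 100 genes, 14.2% from 100 to below 150 genes and 16.7% from 150 to below 200. It went on to 18.7% from 200 to below 300 genes, 20.1% up to 500, 20.9% up to 750 and 23.0% in the 53 barcodes with 1000 or more. In Coch P33, the share went from 5.31% in the bin from 100 genes to 23.4% at 500 or more, and in the library labelled rep 3 of Coch + Tmx P26 from 9.18% in the bin from 100 genes to 22.4%. In Coch P12 rep 1 it lay between 16.3% and 19.3% in every bin. Detected genes rise with depth. Within the narrower range of 5000 to 10000 UMIs the top bin exceeded the bottom bin in 5 of 8 libraries and was lower in 3. In that range only Coch P12 rep 1 had a bin at 500 or more genes with at least 10 barcodes. Elsewhere the top bin began at 200 or 300 genes. These are descriptions over barcodes of the same libraries, with no test.

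**Figure D2:**
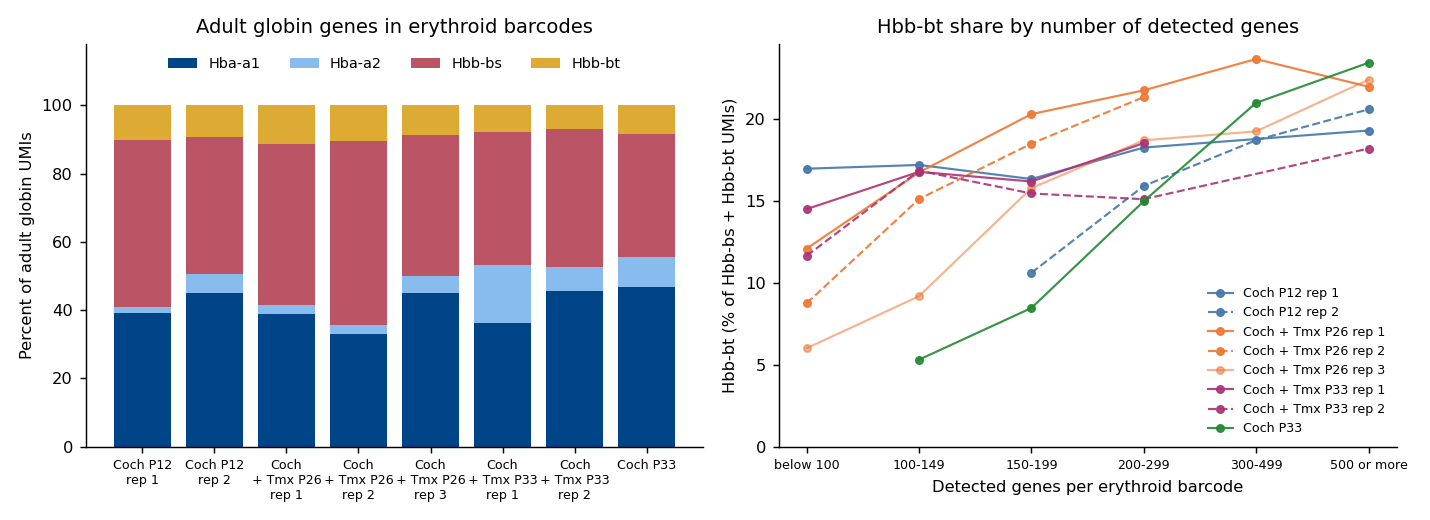
Left, the percentage of adult globin UMIs from each of the 4 genes in the erythroid barcodes of each library. Right, the Hbb-bt percentage of Hbb-bs and Hbb-bt UMIs against the number of detected genes, 1 line per library and only bins with at least 10 barcodes; the share is higher in the last bin than in the first in all 8 libraries, and its lowest value is 5.31% in Coch P33; the library labelled rep 3 of Coch + Tmx P26 is drawn pale.

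Embryonic and minor globins were scarce. On the CPM scale, used for all levels from here on and not divided by gene length because the kit counts transcript ends, the theta globins Hbq1a and Hbq1b had means of 383 ± 162 and 361 ± 129 (SD, n = 8). The embryonic beta-like gene Hbb-bh1 had 58.6 ± 50.6 and Hbb-bh2 19.0 ± 16.2, Hbb-y had 1 UMI in all erythroid barcodes and Hba-x had 0 of 1058200 non-globin UMIs, which allows up to 2.84 CPM. Hbb-bh1 and Hbb-bh2 lie in the beta globin cluster and resemble its adult genes, so their reads are uncertain. Hbq1a was lower at or above 500 genes in all 6 libraries compared, with a median log2 ratio of -2.12, whereas Hbq1b was higher in 4 and lower in 2.

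Non-globin UMIs made up 7.07% of the UMIs of erythroid barcodes, with a library median of 171 to 623 per barcode, and a few genes held much of them. The 20 genes with the highest mean level, ribosomal protein and mitochondrial genes aside, included Ftl1, Alas2, Malat1, Mkrn1, Ubb, Fth1, Oaz1, Bpgm, Sec61g, Gpx1, Ube2l6, Bnip3l, Cd24a, Fam220a, Prdx2, Car2, H3f3a, Fech and Tpt1. Ftl1, the ferritin light chain, had 31850 ± 11880 and Alas2 28300 ± 7676 (SD, n = 8). Mkrn1, a ubiquitin ligase, had 16830 ± 6632, Ubb, a polyubiquitin gene, 15420 ± 6854, and Oaz1, an inhibitor of polyamine synthesis, 13010 ± 4706. Bpgm had 11600 ± 3036 and Bnip3l, which marks mitochondria for removal, 7575 ± 2176. Of the 20, 16 were at least 4 times their level in the other barcodes in every library, and Malat1, Fth1, H3f3a and Tpt1 were not.

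An erythroid gene outside the rule was high as well. Slc4a1, the anion exchanger of the red cell membrane, had 1287 in erythroid and 5.31 in other barcodes. Bpgm was detected in 65.1 to 82.5% of a library's erythroid barcodes and in 20.4% of macrophage barcodes, whose median barcode held 6864 non-globin UMIs. Levels in Coch P12 rep 2 and Coch P33 were low for several of these genes: Alas2 was 22550 and 16630 there, against 23820 to 40840 in the other 6 libraries, and Bpgm 7675 and 7022, against 9729 to 14770. In these 2 libraries 98.4% and 66.8% of erythroid barcodes held 3 or more UMIs of other cell types. The library labelled rep 3 of Coch + Tmx P26, with 82.9%, had 27320 for Alas2 and 12960 for Bpgm. The part of other cells' RNA in these levels was not tested.

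Levels of several non-globin genes varied with the number of detected genes. Pooled over libraries, Alas2 was 63830 below 100 genes, 43010 in the bin from 150 to below 200, 28430 from 300 to below 500, 18270 from 500 to below 750 and 4819 at 1000 or more. Ftl1 went from 76570 to 9941 and Ube2l6, the conjugating enzyme for the ubiquitin-like protein ISG15, from 14710 to 1446 between the same ends. Bpgm was highest in the middle: 7965 below 100 genes, 16740 from 200 to below 300 and 1330 at 1000 or more.

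Genes of the opposite order were carbonic anhydrase Car2 and the glutathione peroxidase Gpx1. Car2 went from 428 below 100 genes to 2274 from 200 to below 300, 4872 from 500 to below 750 and 10780 from 750 to below 1000. Gpx1 went from 985 to 14080 between the same ends, and both were lower again at 1000 or more, with 9526 and 8929. Klf1, the erythroid Krüppel-like factor, was at 0 UMIs below 150 genes, which allows up to 23.8 CPM, and at 28.3 from 300 to below 500, 668 from 750 to below 1000 and 914 at 1000 or more. Within 8 of 8 libraries, Alas2, Ftl1 and Ube2l6 were lower, and Car2, Gpx1 and Prdx2 higher, in the top bin than in the bottom bin. The top bin began at 200 genes in Coch + Tmx P26 rep 2 and Coch + Tmx P33 rep 1 and at 500 in the others. The rule left out barcodes with no Alas2 UMI, which had few detected genes, so the rule itself raises Alas2 at the low end. The Alas2 order is thus a description only.

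At 5000 to 10000 UMIs per barcode only Coch P12 rep 1 had a bin at 500 or more genes with at least 10 barcodes. The top bin of the other libraries began at 200 or 300 genes there, so the range says little about barcodes with 500 or more. Between those bins the order of Alas2, Ftl1 and Car2 held in 8 of 8 libraries, that of Gpx1 in 7 and that of Ube2l6 and Prdx2 in 6. From bin to bin the order was less even: at any depth Alas2 fell at every step in 5 of 8 libraries, Ftl1 in 6 and Ube2l6 in 2, and Car2 rose at every step in 4, Gpx1 in 6 and Prdx2 in 0. Alas2 started lower in 3 libraries. It was 15980 in the bin from 100 genes and 29060 in that from 200 in Coch P33, 33960 below 100 genes and 45250 from 100 in the library labelled rep 3 of Coch + Tmx P26, and 53030 and 59090 in Coch + Tmx P26 rep 2. Bpgm in the first bin ranged from 791 in Coch P33 to 18120 in Coch + Tmx P33 rep 1.

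**Figure D3:**
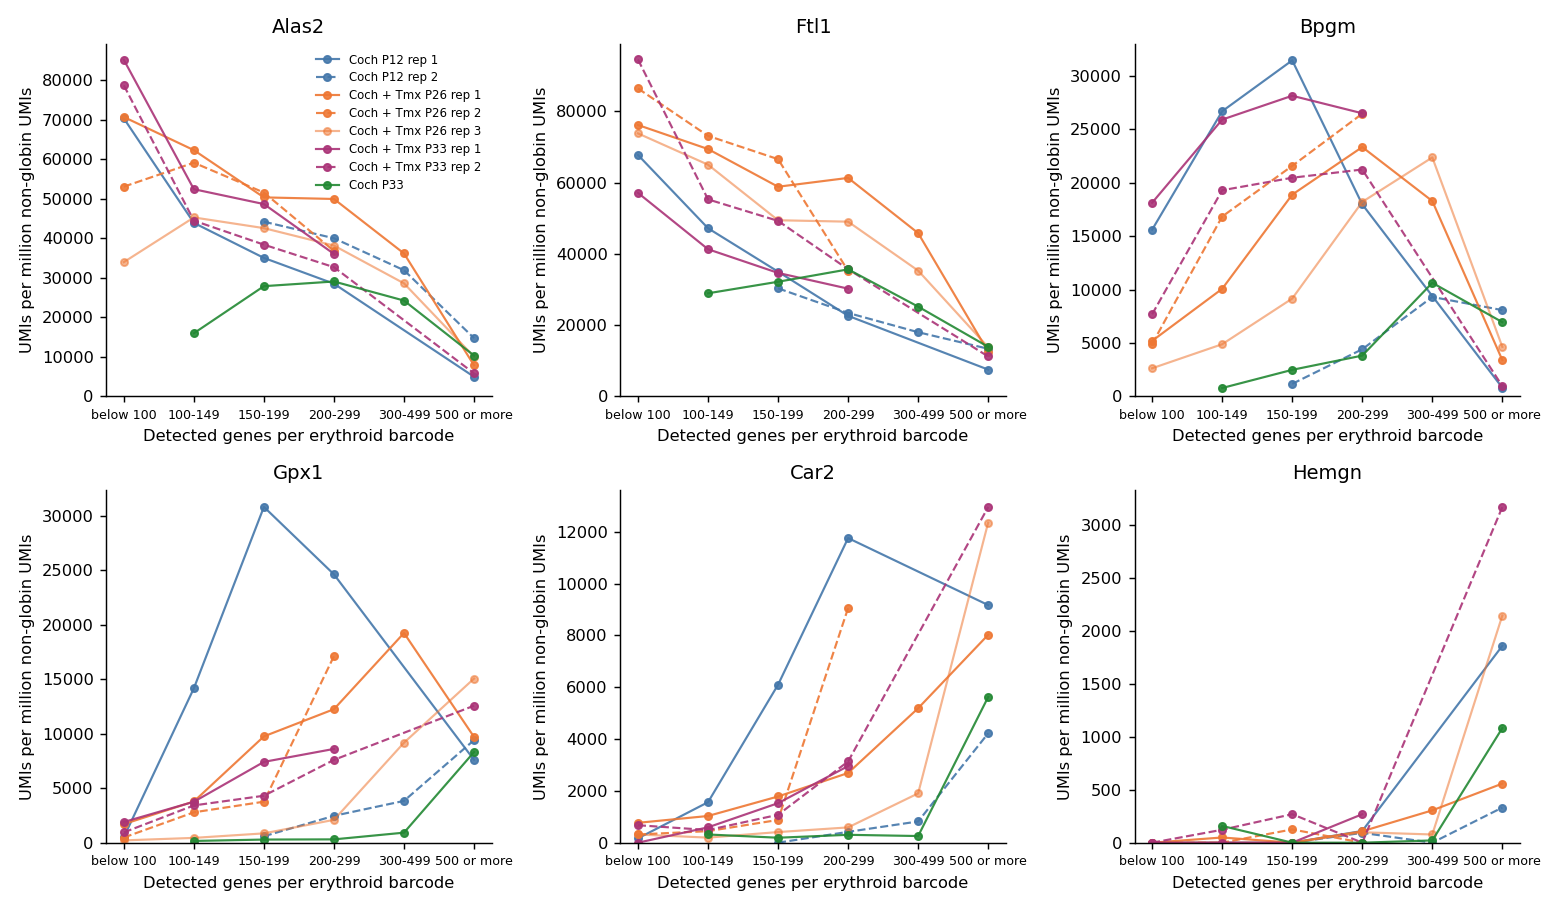
Level of 6 genes in CPM against the number of detected genes per erythroid barcode, 1 line per library and only bins with at least 10 barcodes; the library labelled rep 3 of Coch + Tmx P26 is drawn pale. Alas2 and Ftl1 are lower at the right end, Bpgm peaks between 150 and 500 genes, Gpx1 is higher in the last bin than in the first in all 8 libraries, and Car2 and Hemgn are highest in the last bin in most libraries.

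Below against at or above 500 genes, 6 libraries had at least 10 barcodes on each side. Among 2172 genes with at least 50 UMIs, 443 were higher at or above 500 genes in all 6 libraries and 75 were lower in all 6, with a median log2 ratio of 0.42 over all of them (log2 of CPM plus 10). The 10 genes with the largest ratios were Rrm2, Cdk1, Hist1h2ap, Pcna, Dek, Fbxo5, Hmgb2, Cenpf, Hist1h2ak and Gch1. Rrm2, the small subunit of ribonucleotide reductase, averaged 1376 at or above 500 genes and 25.7 below (median log2 ratio 5.21), and the mitotic kinase Cdk1 averaged 328 and 2.17 (4.70). Pcna, the DNA clamp of replication, had a median ratio of 4.58 and the chromatin protein Hmgb2 4.51. The 10 genes with the most negative ratios were Fam220a, Alas2, Mkrn1, mt-Nd6, Hbq1a, Gm26917, Gm10371, Ube2l6, Syt14 and Bcam. Fam220a averaged 1974 at or above 500 genes and 8737 below (-2.31), Alas2 8969 and 38540 (-2.25) and Mkrn1 5477 and 20910 (-2.15). These values describe the split, since the number of detected genes is itself set by the counts, and no test was run. Alas2 was also used by the rule, which raises it in barcodes with few non-globin UMIs.

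The heme pathway divided by step, with Alas2 itself part of the rule and so a description only. Alas2, which starts it, Fech, which inserts the iron at its end, and the mitochondrial carrier Slc25a39 were lower at or above 500 genes in all 6 libraries, with median log2 ratios of -2.25, -1.28 and -1.47. The other 9 of the 12 pathway genes with 50 UMIs were higher in all 6, among them the middle enzymes Alad (3.72), Cpox (3.58) and Urod (3.05), and the median over the 12 was 3.10. Iron genes divided as well: Ftl1 was lower in 6 of 6 (-1.99), the transferrin receptor Tfrc higher in 6 of 6 (2.11), and Fth1 (-0.20) and the mitochondrial iron importer Slc25a37 (0.37) pointed both ways among libraries.

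Of 23 membrane and skeleton genes, 13 were higher at or above 500 genes in all 6 libraries and 2 were lower, Epb41 (-1.85) and the Lutheran blood group gene Bcam. Epb41 encodes protein 4.1, which ties spectrin to actin. Higher were the Rh blood group protein Rhd (3.71), Rhag (3.51), the adhesion molecule Icam4 (3.48), the water channel Aqp1 (2.67) and Slc4a1 (1.83). Of 10 erythroid transcription factors, 6 were higher in all 6, with Klf1 at 4.37, Hemgn at 4.28 and Gata1 at 3.42. Among 18 cell cycle genes 15 were higher in all 6, with a median of 3.43.

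Genes of organelle and protein clearance ran the other way, with a median of -1.12 over 13 genes. Ube2l6 (-2.05) and Bnip3l (-1.60) were lower at or above 500 genes in 6 of 6 libraries, and Gabarapl2 (-1.76), the poly(A) polymerase Fam46c (-1.45), the exonuclease Isg20 (-1.22) and Ubb (-1.12) in 5 of 6. Trim10 (2.05) and the nuclear transport protein Xpo7 (1.65) were higher in 5 of 6. Among redox and gas exchange genes, 5 of 11 were higher in all 6, including Car2 (2.61) and biliverdin reductase Blvrb (2.06), while the antioxidant enzymes Gpx1 (1.49) and Prdx2 (0.90) were higher in 4 and lower in 2. Bpgm was lower in 5 of 6 (-2.10), and the other 9 glycolysis genes with 50 UMIs had no shared direction in all 6.

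Mitochondrially encoded RNA was higher in the barcodes with fewer genes, with 12 of 13 genes lower at or above 500 in all 6 libraries. As a share of non-globin UMIs, the 13 genes held 10.6% on average below 500 genes. Of 81 ribosomal protein genes, 41 were higher in all 6 and 1 lower, with a median of 0.58. The nuclear RNA Malat1 was higher at or above 500 genes in 6 of 6 (1.73). It was the only 1 of 5 nuclear RNAs to be so, and the median over the 5 was -0.20. Together the 5 made up 1.82% of non-globin UMIs on average in erythroid barcodes and 4.08% in the other barcodes. Blood progenitor genes other than the erythropoietin receptor Epor (3.35) had at most 15 UMIs each, among them Kit with 9, Cd34 with 6 and Myb with 1.

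Detection per barcode was compared after drawing 100 non-globin UMIs from each, which left out 163 of the 1828 barcodes below 500 genes and 0 of the 211 above. Fech was then found in 51.6% below and 27.5% at or above 500 genes, Ube2l6 in 63.7% and 34.1% and Bpgm in 59.5% and 43.6%. Rrm2 was found in 0.300% and 8.06%. Without drawing, Fech was in 76.3% and 96.2%, so for Fech, Ube2l6 (86.8% and 97.2%) and Bpgm (71.3% and 85.3%) the order of the raw shares was opposite to that at equal depth. Macrophage barcodes thinned the same way had Fech in 0.139% and Bpgm in 0 of 720, against 22.9% and 20.4% before drawing.

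Barcodes at or above 500 genes were split further. With 3 or more UMIs of the regulators Gata1, Klf1, Hemgn and Tal1 as a criterion, chosen after the values were seen, 56 erythroid barcodes (2.75%) qualified, 54 at or above 500 genes and 2 below. Coch P12 held 8 and 3 of them, among 166 and 183 erythroid barcodes. Coch + Tmx P26 held 3, 3 and 15 among 413, 152 and 572, Coch + Tmx P33 held 8 and 9 among 125 and 181, and Coch P33 held 7 among 247. Among 720 macrophage barcodes 3 met the criterion (0.417%, exact 95% binomial interval 0.0860 to 1.21%), with a median of 6864 non-globin UMIs against 2627 in the 56.

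The 56 had a median of 69.8% globin UMIs and 1058 genes. The other 157 barcodes at or above 500 genes had 664 genes and 13212 UMIs at the median. Of these, 153 held 3 or more UMIs of other cell types, as did 43 of the 56 and 901 of the 1828 below 500 genes. Median non-globin UMIs were 1315, 2627 and 277 in the same order. Deeper barcodes meet this fixed cut more easily, so the counts do not compare the classes. The 157 lay mostly in Coch P12 rep 2 (58 of 61 barcodes at or above 500 genes) and Coch P33 (53 of 60). Markers of other cells were at 20620 and 6639 CPM in the erythroid barcodes of these libraries and at 15440 in the library labelled rep 3 of Coch + Tmx P26, and their part in this class was not tested. These classes were small in some libraries: the 157 included 1, 2 and 3 barcodes in Coch + Tmx P33 rep 1, Coch + Tmx P26 rep 2 and Coch + Tmx P33 rep 2, and the 56 included 3 in each of 3 libraries. The means and ranges over libraries that follow weight all libraries equally and rest in part on these few barcodes.

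In the barcodes with 3 or more regulator UMIs, the mean level over 8 libraries was 3034 for Rrm2, 4689 for Hmgb2, 1630 for Mki67 and 1868 for the mitotic gene Birc5. In barcodes below 500 genes with fewer than 3 regulator UMIs these were 22.7, 71.3, 37.4 and 22.8, and in those at or above 500 with fewer than 3 they were 12.8, 78.5, 34.4 and 64.4. Alad had 3299, 61.7 and 98.4 in the same order, Icam4 843, 6.67 and 24.5, Tfrc 704, 74.7 and 57.2 and Epor 317, 3.07 and 9.76. For Alas2 the order was 5484, 41230 and 12330, for Bpgm 751, 16300 and 6757 and for Bnip3l 1856, 10600 and 4801. For Alad, the lowest library of the class with 3 or more regulator UMIs exceeded the highest below 500 genes (2237 against 92.5). The same held for Icam4 (532 against 28.7), Rhd (2794 against 391) and Car2 (11880 against 7197). The share of all genes without overlap between these classes is not given here, so whether these genes stand apart was not tested. In the middle class of barcodes, cell cycle genes made up 0.168 to 0.368% of non-globin UMIs in each library, against 0.197 to 0.399% below 500 genes, 1.22 to 4.71% with 3 or more regulator UMIs and 0.236 to 0.328% in all other barcodes.

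The criterion also found 28 barcodes outside the erythroid set, 19 of which held 15 to 50% globin UMIs and Alas2, so that the globin threshold left out barcodes with the same regulators. The remaining 9 comprised 8 with under 15% globin and 1 with at least 50% globin and no Alas2 UMI.

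**Figure D4:**
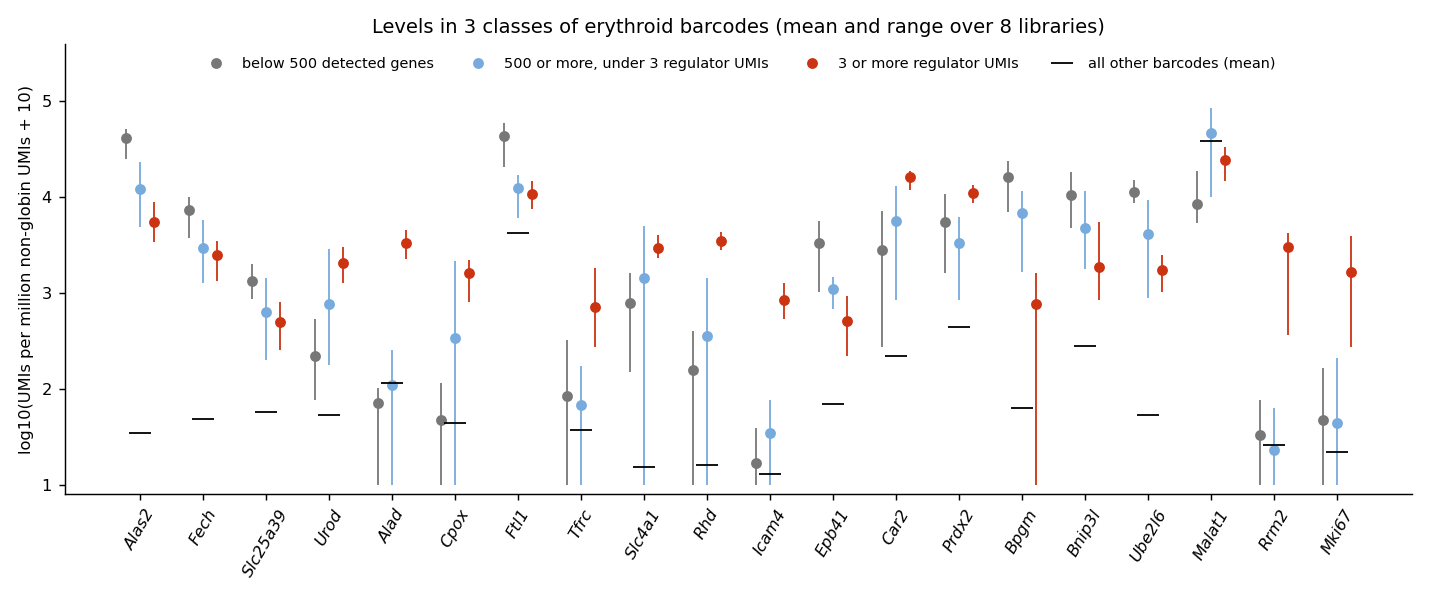
Mean (points) and range over the 8 libraries (lines) of 20 genes in 3 classes of erythroid barcodes, with the mean of all other barcodes as a dash, as log10 of CPM plus 10. Barcodes with 3 or more regulator UMIs are high for Alad, Icam4, Rrm2 and Mki67 and low for Alas2, Bpgm and Ube2l6, and the class at or above 500 genes with fewer than 3 lies between or with the class below 500 for most genes.

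The share of erythroid barcodes at or above 500 genes was 8.43% and 33.3% in the 2 Coch P12 libraries, 3.63%, 3.29% and 6.47% in Coch + Tmx P26, 6.40% and 6.08% in Coch + Tmx P33, with 24.3% for Coch P33. The 3 uninduced libraries lay above the 5 induced ones, with means of 22.02% ± 12.6 (SD, n = 3) and 5.17% ± 1.58 (SD, n = 5), a difference of -16.8 points at p = 0.0357, the smallest p this exact permutation test can give, and adjusted p = 0.286. At a globin share of at least 70% the libraries overlapped, with 1.30% in Coch P12 rep 1 and 1.98 to 5.33% in the induced libraries (p = 0.214), and with the line at 300 genes they overlapped as well (p = 0.0714, exact permutation tests). Between P12 and later libraries the difference was 12.5 points (p = 0.143, adjusted p = 0.381, exact permutation test). Without Coch P12 rep 2 that difference was 0.0739 points, and the difference between induced and uninduced libraries -11.2 points. The 2 highest libraries, Coch P12 rep 2 and Coch P33, also had the deepest erythroid barcodes, with medians of 8928 and 9028 UMIs against 4579 to 8710 elsewhere, and the part of depth in the share was not tested. Without the library labelled rep 3 of Coch + Tmx P26 the difference between induced and uninduced libraries was -17.2 points (p = 0.0571, the smallest this exact permutation test can give).

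Gene levels were compared between ages on UMIs summed over the erythroid barcodes of each library, leaving out the 5 genes of the rule (edgeR quasi-likelihood test, Benjamini-Hochberg adjustment over 2375 genes). At P12, 13 genes were higher (0.547% of genes tested) and 3 lower (0.126%) than in the mean of the 3 later groups. With library sizes that include the globins the split was 24 higher and 1 lower. No gene of the heme (11 tested), iron (10), membrane (24), transcription factor (10), clearance (14), redox (11), glycolysis (11) or cell cycle (18) lists was among them, and their medians lay between -0.37 and 0.23 on the log2 scale beside 0.08 over all genes. With library sizes that include the globins the median of all genes was 0.50. Among the 16 were known products of bone and cartilage cells and of neutrophils: Bglap and Bglap2 (osteocalcin), Ibsp (bone sialoprotein), Col1a2 and Sparc of bone matrix, Col2a1, Col9a1, Col11a1 and Mia of cartilage, all higher at P12, and the neutrophil genes S100a8 and S100a9, lower at P12. Nrep, Kazald1, Scara3 and Smpd3 were also higher and the interferon-inducible Ifi27l2a lower.

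Col2a1 was at 357 and 585 at P12 and at 0 to 58.4 in the 6 later libraries, a log2 fold change of 3.72 ± 0.53 (SE, edgeR adjusted p = 0.00204). Bglap was at 128 and 251, and at 6.53 in the library labelled rep 3 of Coch + Tmx P26 and 0 in the other 5, with 49 UMIs at P12 and 2 later (6.80 ± 0.96, edgeR adjusted p = 0.00204). S100a8 was at 14.3 and 75.4 at P12 and at 227 to 1408 later (-3.76 ± 0.67, edgeR adjusted p = 0.0128). In none of the 16 genes, which were picked by this comparison, did the P12 and later libraries overlap. Of 5 tested neutrophil markers 2 were lower at P12, of 5 stromal markers 1 was higher, and of 4 Schwann cell markers none passed (median 2.57, smallest adjusted p = 0.203, edgeR). The 7 neutrophil markers made up 0.0157 to 0.299% of the non-globin UMIs of erythroid barcodes and 0.0369 to 1.23% of those of other barcodes.

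All 16 genes differed in the same direction, without overlap, in the barcodes that were not erythroid. Their mean level over the 8 libraries was higher there than in erythroid barcodes for 15 of the 16, and the level was higher there in every library for 10. The share of all 2375 tested genes without overlap in the other barcodes is not given here, so whether the 16 stand apart was not tested. Col2a1 had 747 at P12 and 66.1 later in the other barcodes, Bglap 478 and 0.789, and S100a8 180 and 3255. The exception in the mean over libraries was Smpd3, with 179 at P12 in erythroid barcodes and 116 in the others, carried by 22 UMIs in Coch P12 rep 1. At P12 alone Mia was also higher in erythroid barcodes, at 323 against 305. Of 151 tested genes at least 4 times higher in erythroid than in other barcodes in every library, 0 passed the threshold by edgeR and 18 had an unadjusted p under 0.05. Over all 2375 genes tested, 16 passed (0.674%) and 176 had an unadjusted p under 0.05 (edgeR), so 0 of 151 is near the share over all genes. The smallest adjusted p among the 151 was 0.126, for the apolipoprotein L gene Apol11b (117 at P12 and 745 later, log2 fold change -2.23 ± 0.57, edgeR quasi-likelihood test). The count of 16 rested on single libraries: without Coch P12 rep 2, 1 gene passed and it was not among the 16, without Coch P33 2 passed, and without Coch P12 rep 1 36 passed, 11 of them shared. Without the library labelled rep 3 of Coch + Tmx P26 7 passed, and 8 without either library of Coch + Tmx P33. In a fit after removal of all barcodes with 3 or more UMIs of other cell types, the median log2 fold change over 551 genes was 0.17. Of the 16, S100a8, S100a9 and Sparc had -4.22, -2.90 and 0.88 in it. That fit had only Coch P12 rep 1 at P12, because 3 barcodes were left in rep 2, and the lone library was assumed to vary like the other groups.

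**Figure D5:**
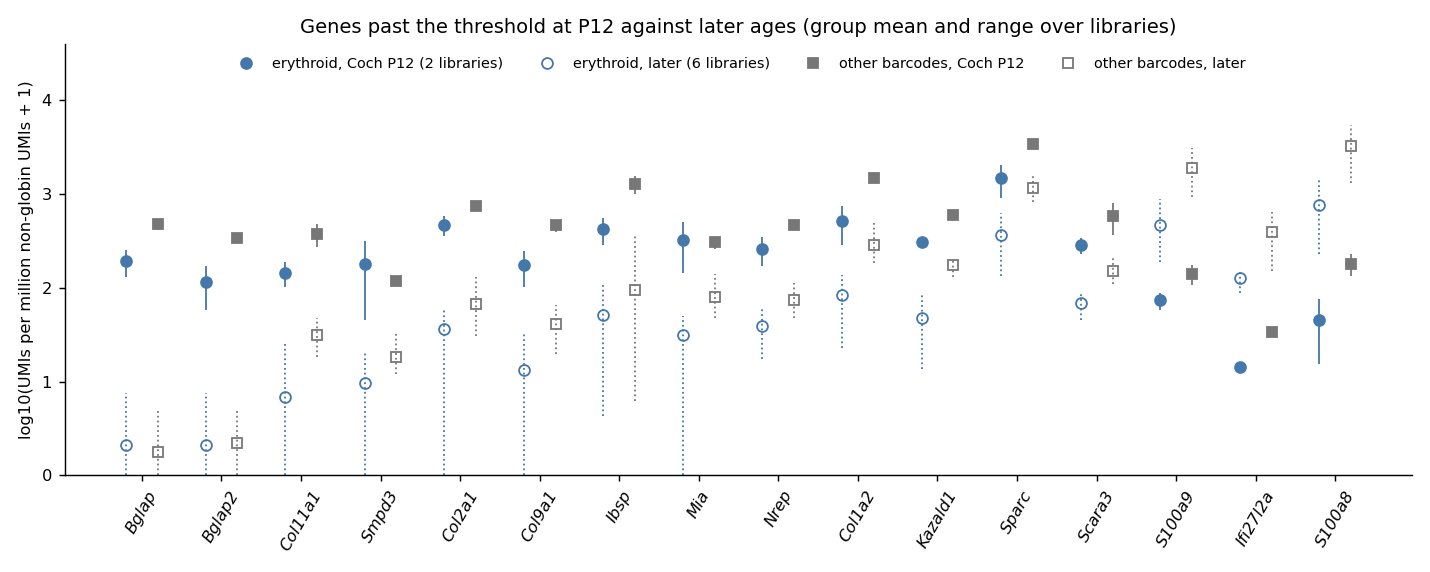
The 16 genes past the threshold between Coch P12 and later libraries, as log10 of CPM plus 1, in erythroid barcodes (circles) and all other barcodes (squares), at P12 (filled) and later (open). Points are group means and lines the range over libraries (solid at P12, dotted later), with 2 libraries at P12 and 6 later; in every gene the filled and open symbols are in the same order in both kinds of barcode.

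Between the induced groups, 0 genes were higher in Coch + Tmx P33 than in Coch + Tmx P26 (0% of 2375 tested) and 2 were lower (0.0842%), with 210 genes at an unadjusted p under 0.05 (DESeq2 called 3, all lower). They were Gm42418 and AY036118, which in mouse collect reads from ribosomal RNA. Gm42418 was at 352 and 831 in Coch + Tmx P33 and at 7758, 3857 and 3241 in Coch + Tmx P26 (log2 fold change -3.50 ± 0.53, edgeR adjusted p = 0.00982). AY036118 was at 264 and 554 against 6955, 2123 and 2738 (-3.71 ± 0.65, edgeR adjusted p = 0.0265). The uninduced libraries were at 5129 to 8785 for Gm42418 and 1984 to 9666 for AY036118, overlapping those of Coch + Tmx P26, and the 2 libraries of Coch + Tmx P33 lay below all others. Both genes were higher in erythroid than in other barcodes in 8 of 8 libraries, and in the other barcodes they were also lower in Coch + Tmx P33, at 231 against 556 for Gm42418 and 25.3 against 262 for AY036118.

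No gene of the erythroid lists passed in this comparison. The fitted log2 fold change was above 0 for 18 of 18 cell cycle genes (median 0.92). It was below 0 for 13 of 13 mitochondrially encoded genes (median -0.70) and for 13 of 14 clearance genes (median -0.68). Over all 2375 genes tested it was above 0 for 961 and below 0 for 1414, with a median of -0.23. The smallest adjusted p values in the cell cycle, mitochondrial and clearance lists were 0.368, 0.169 and 0.348 (edgeR). The part of barcodes with 3 or more regulator UMIs in the cell cycle values was not tested. Without scaling factors the median of all genes was 0.19 and the same medians were 1.32, -0.28 and -0.25, with 5 of 14 clearance genes and 1 of 13 mitochondrial genes above 0, and the redox list went from -0.40 to 0.03. The library labelled rep 3 of Coch + Tmx P26 is 1 of the 3 of its group, and without it the same 2 genes passed. Without either library of Coch + Tmx P33, or without Coch P33, 0 genes passed (141, 258 and 87 at an unadjusted p under 0.05, edgeR). Without Coch + Tmx P26 rep 1 1 passed, and without the first or second Coch P12 library 8 and 7. After removal of barcodes with 3 or more UMIs of other cell types, Gm42418 and AY036118 stayed lower in Coch + Tmx P33, with log2 fold changes of -3.02 and -3.39. In that fit most genes past the threshold were instead higher in Coch + Tmx P33, against 0 in the main fit, and the median over its 551 genes was 0.13. It kept only rep 1 of Coch P12.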

How the data were processed

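The authors dissociated cochleae with enzymes, made 10x Chromium 3′ v2 libraries and deposited 1 matrix of UMI counts per library from Cell Ranger (version not given in the sources used here) on mm10. Counts were used as deposited, for 27998 genes, and no doublet caller was run. Intervals cover counting error only. Members and gene lists were chosen with earlier results of these data known. UMIs were summed per library and tested with edgeR 4.0.16 (R 4.3.3; 5 genes of the rule left out, low-count filter, TMM, quasi-likelihood test, Benjamini-Hochberg threshold 0.05, at least 10 barcodes per library), all 8 libraries in 1 fit. On simulated data for the age comparison it recovered 58.9% of genes changed 4-fold and 0% of those changed 2-fold. 4 library values were compared by two-sided exact permutation tests in Python (scipy 1.17.1), adjusted over 8. Named genes were the markers, the 20 most abundant, the 10 most changed each way per comparison, the 4 most abundant and all called members of each list, and the other globins; further genes were chosen after their values were seen. Alternatives were DESeq2 1.42.0, other scalings, filters and member rules, libraries left out and, chosen after seeing the data, barcodes with at least 5000 UMIs. A few genes are not reported here.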

Additional observations from a re-analysis of the deposited data

Results flagged for a closer look

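The share of erythroid barcodes with 500 or more detected genes was 24.3% in Coch P33, the highest of the 6 later libraries. Its gap to the nearest of them was 0.849 of their whole range. The later libraries differ in age and induction, and Coch P33 was the only uninduced one among them. 8 such checks were made, and chance marks about 1 in 20 groups.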

How the results depend on the processing

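The count of 16 genes between ages was 25 with library sizes that include the globins, 35 with no filter (14800 genes tested), 5 in barcodes below 500 genes only (827 tested), 79 without barcodes holding 3 or more UMIs of other cell types, 7 in barcodes with at least 5000 UMIs, and 1 to 36 with 1 library left out. The count of 2 between the induced groups was 1 without TMM, 1 with library sizes that include the globins, 8 with no filter, 0 in barcodes below 500 genes (35 genes at an unadjusted p under 0.05, edgeR), 9 at a globin share of at least 70%, 48 without barcodes holding other cells' UMIs, 0 at 5000 or more UMIs (138 at an unadjusted p under 0.05), and 0 to 8 with 1 library left out. DESeq2 called 13 and 3. With a replicate block the counts were 3 and 2, but libraries with the same number did not deviate together (correlations from -0.301 to 0.22), so the numbers do not pair them. The fits without barcodes holding other cells' UMIs had only Coch P12 rep 1 at P12. The causes were not tested.

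Of the library values, the Hbb-bt share between P12 and later reversed to -0.19 points at 5000 or more UMIs. The alpha globin share ranged from -7.11 to 2.58 points between P12 and later, reversed at 2.58 without Coch P12 rep 1, and from -6.51 to 0.77 between induced and uninduced with 1 library left out, reversed at 0.24 without Coch + Tmx P26 rep 2 and at 0.77 without Coch P33. No alternative gave an adjusted p under 0.19 for any of the 4 values (exact permutation tests). With 2 libraries at P12 and 1 of uninduced P33, age and induction cannot be told apart.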
